A study of Mus musculus with 9 samples.

Results

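The genes described here are 10 members of the Notch pathway: the receptors Notch1, Notch2, Notch3 and Notch4, the ligands Jag1, Jag2 and Dll1, and the target genes Hes1, Hey1 and Heyl. They were chosen by gene symbol and matched to the Entrez IDs of the expression table, and all 10 were found among its 28059 IDs. RNA was sequenced from YAMC cells, which the labels assign to mouse small intestine and which are generally known as a colon line with a conditional immortalizing gene. There were 9 libraries in 3 groups: 3 from the parental line, with wildtype genotype, 3 from Cdk8 knockout clone 1 and 3 from Cdk8 knockout clone 19. Both clones are Cdk8 -/- and were made with CRISPR, and all cells were kept at 32 °C and collected while growing logarithmically. The design asks which transcripts change when Cdk8 is lost.

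Each knockout group is 1 clone. Cells cloned without losing Cdk8 were not analysed here, so effects of cloning and of Cdk8 loss cannot be told apart. The labels do not say whether the 3 libraries of a group came from separate cultures, so the p-values cover the spread among libraries, which may be technical. The estimated depth was 23.2 to 44.2 megareads per library. Cdk8 itself measured 17.6 ± 0.126 RPKM (SD, n = 3) in the parental libraries, 11.0 ± 0.658 in clone 1 and 10.4 ± 0.157 in clone 19, lower in both clones (log2 fold change -0.66 and -0.74, limma adjusted p = 7.6e-08 and 3.5e-08) and still present as RNA. RPKM are reads per kilobase of gene model and megareads of the library.

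Notch receptors are cell surface proteins that are switched on by Jagged or Delta-like ligands on a neighbouring cell. Cleavage by an ADAM metalloprotease and then by gamma-secretase frees the receptor's intracellular domain, which enters the nucleus, joins the DNA-binding protein RBPJ and a Mastermind coactivator, and switches on genes of the HES and HEY families, which encode transcriptional repressors. In the intestine Notch1 and Notch2 keep crypt progenitors undifferentiated, and Hes1 holds back Atoh1, the factor of the secretory lineage. CDK8 with cyclin C is known to phosphorylate the intracellular domain, which marks it for destruction through the ubiquitin ligase subunit Fbxw7.

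The start regions of Notch1, Notch2 and Jag1 are shown because these were the most abundant receptors and ligand and did not change in one direction. Each runs from 250 bases before to 20 bases after the start site in RefSeq's GRCm38.p6, 5′ to 3′ on the gene's strand: Notch1 at chr2:26503803-26504072 (minus strand), Notch2 at chr3:98013288-98013557 (plus strand) and Jag1 at chr2:137116501-137116770 (minus strand). Capitals mark matches on either strand to CACNAG, the N-box that HES repressors are known to bind.
Notch1: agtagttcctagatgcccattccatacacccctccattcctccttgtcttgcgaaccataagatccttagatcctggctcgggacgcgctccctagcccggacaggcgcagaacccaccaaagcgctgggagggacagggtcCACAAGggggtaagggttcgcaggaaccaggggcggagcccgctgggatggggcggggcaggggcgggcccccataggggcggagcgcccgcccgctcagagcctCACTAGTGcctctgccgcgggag
Notch2: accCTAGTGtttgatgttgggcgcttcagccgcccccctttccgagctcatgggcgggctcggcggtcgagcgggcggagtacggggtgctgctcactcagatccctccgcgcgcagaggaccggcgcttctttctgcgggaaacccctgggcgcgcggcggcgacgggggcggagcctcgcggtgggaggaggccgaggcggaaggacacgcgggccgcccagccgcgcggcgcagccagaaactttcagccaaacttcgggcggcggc
Jag1: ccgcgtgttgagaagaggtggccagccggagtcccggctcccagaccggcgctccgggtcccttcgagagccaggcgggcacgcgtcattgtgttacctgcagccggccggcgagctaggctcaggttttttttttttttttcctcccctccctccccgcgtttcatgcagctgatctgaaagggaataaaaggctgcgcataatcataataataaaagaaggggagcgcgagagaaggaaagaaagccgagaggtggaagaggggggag
Notch1 had 3 matches, 1 of them 108 bases before the start and an overlapping pair in CACTAGTG across it. Notch2 had 1 match, 247 bases before its start, and Jag1 had none. RefSeq windows of 300 bases were found for 7 of the 10 members, 8 windows in all since Dll1 had 2. Notch3 had 2 N-box matches, Dll1 had 1 in 1 of its windows, and Notch4 and Jag2 had none. The ends of the Notch3 window and of that Dll1 window were not found in transcripts of these genes, unlike those of the members' other windows. The N-box letters occur in 42.5% of 32851 such windows, so a match is common. The RBPJ core TGGGAA, on either strand, was in none of the members' windows and in 25.6% of all windows. Hes1, Hey1 and Heyl had no window, so their start regions were not searched for either motif. These are matches of letters in a window and not binding sites, and no match in a window says nothing of binding elsewhere.

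Hes1, Notch2, Notch1, Jag1 and Jag2 were above the filter for testing, which asked for 3 or more libraries at 1 RPKM or above and left 12568 genes. Changes were tested with limma on log2(RPKM + 0.5), with p-values adjusted over all tested genes and a gene called at an adjusted p under 0.05. This scale understates the change of low genes. All 5 were above 1 RPKM in every library. Of these 5 members, 4 were higher and 1 lower in clone 1 than in the parental line, beside 39.8% of all tested genes called higher and 32.6% lower. In clone 19 the same numbers of members were called, 4 higher and 1 lower, beside 36.7% and 32.3% of tested genes. Since most tested genes were called, that a member changed is not particular to these genes. The size of its change is set beside that of all genes below. The share of all genes whose groups do not overlap was not computed. That the groups lie apart for a member is thus not read as particular to it. The median change of all tested genes was 0.04 in clone 1 and 0.02 in clone 19, and the median absolute change 0.23 and 0.20.

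The other 5 members were low. The deposited values are whole multiples of what 1 read is worth in each library, which gave back the reads behind them, and limma's voom on these reads tested 9 of the 10 members, all but Heyl, among 14827 genes. It was added after the data had been seen. On reads, 5 members were higher and 3 lower in each clone and 1, Dll1, was not called, beside 37.4% higher and 32.6% lower of all genes in clone 1 and 35% and 31.8% in clone 19. Both comparisons use the same parental libraries, so their values are given side by side and not as support for each other. In bulk RNA, fewer cells that express a gene and less RNA per cell cannot be told apart.

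**Figure D1:**
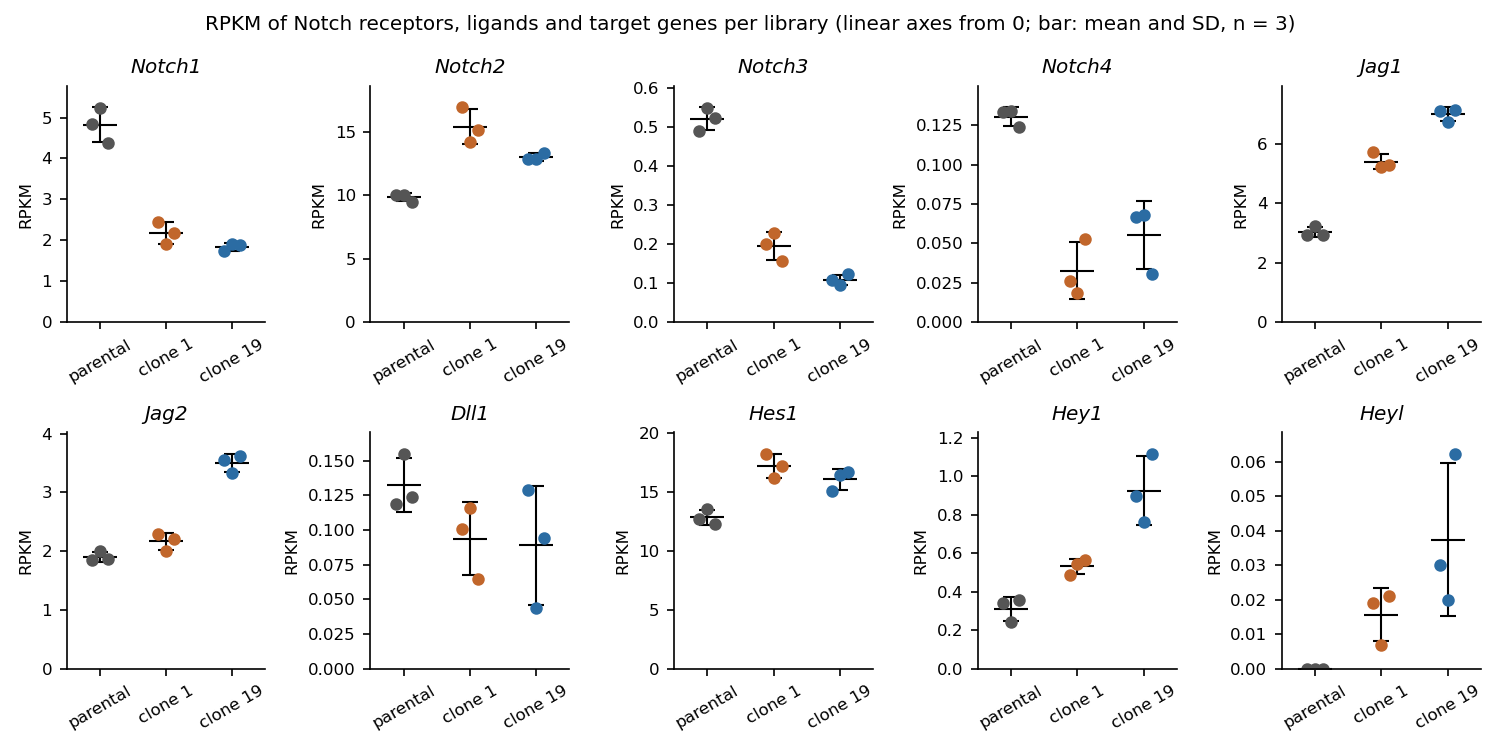
RPKM (linear axis from 0, own scale for each gene) of the 10 members in every library of the parental line, clone 1 and clone 19; points are libraries, and the bars are the mean and SD of 3 libraries. Notch1 lies at 4.39 to 5.24 in the parental line and at 2.45 or less in both clones, while Jag1 lies at 3.23 or less in the parental line and at 5.20 or more in both clones.

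Among the receptors, Notch1, Notch3 and Notch4 fell and Notch2 rose in both clones. Notch1 measured 4.83, 5.24 and 4.39 RPKM in the 3 parental libraries, 2.45, 1.91 and 2.17 in clone 1 and 1.73, 1.90 and 1.88 in clone 19. Every library of either clone was below every parental library, and the ranges of the clones themselves met only at their edge, with the lowest clone 1 library just above the highest of clone 19. The log2 fold change was -0.99 ± 0.08 (SE) in clone 1 and -1.19 ± 0.08 in clone 19 (limma adjusted p = 9.7e-07 and 2.6e-07). Only 2.74% and 1.6% of tested genes fell as far in these comparisons. The change is well covered: between 1377 and 2028 reads lay behind each parental value and between 442 and 647 behind each value of the clones.

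Notch2, the receptor with the highest level in every library, measured 9.99, 10.05 and 9.48 RPKM in the parental libraries, 16.9, 14.2 and 15.1 in clone 1 and 12.8, 12.9 and 13.35 in clone 19. The groups did not overlap, with clone 1 highest and the parental line lowest. The log2 fold change was 0.62 ± 0.06 in clone 1 and 0.39 ± 0.06 in clone 19 (limma adjusted p = 1.6e-06 and 8.0e-05), and 5.79% and 12.4% of tested genes rose as far. The genes beside Notch2 in gene order were higher too. The median change of its 50 nearest tested genes was 0.27 in clone 1 and 0.31 in clone 19. With their shift subtracted Notch2 was 0.35 higher in clone 1 (limma adjusted p = 1.0e-04) and 0.08 higher in clone 19, where the call was lost (adjusted p = 0.20). The genes beside Notch1 were lower by a median of -0.36 and -0.35, and Notch1 stayed lower with that subtracted (-0.63 and -0.83, limma adjusted p = 4.3e-05 and 4.9e-06).

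Notch3, a receptor best known from the mural cells of blood vessels, measured 0.490, 0.548 and 0.522 RPKM in the parental libraries, 0.201, 0.227 and 0.156 in clone 1 and 0.107, 0.0943 and 0.122 in clone 19. The 3 groups did not overlap, and clone 19 was lowest. Behind these values were 432 reads over the parental libraries, 135 over clone 1 and 74 over clone 19. On reads the log2 fold change was -1.41 ± 0.15 in clone 1 and -2.26 ± 0.18 in clone 19 (voom adjusted p = 2.3e-08 and 4.0e-10), which 3.52% and 1.29% of the genes tested on reads reached or passed. In clone 19 this is a level 4.78-fold lower, with clone 1 at 2.66-fold lower.

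Notch4, known from endothelium, was near the limit of detection. It measured 0.134, 0.134 and 0.124 RPKM in the parental libraries, 0.0261, 0.0185 and 0.0530 in clone 1 and 0.0671, 0.0680 and 0.0305 in clone 19. Both clones lay below the parental line and overlapped each other. The reads were 39, 25 and 27 in the parental libraries, 4, 4 and 11 in clone 1 and 13, 15 and 5 in clone 19. The log2 fold change on reads was -2.03 ± 0.35 in clone 1 and -1.24 ± 0.31 in clone 19 (voom adjusted p = 2.5e-05 and 0.0012).

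The make-up of the receptor RNA shifted towards Notch2, while its sum changed less. Summed over the 4 receptors the level was 15.4, 15.98 and 14.5 RPKM in the parental libraries, 19.6, 16.3 and 17.5 in clone 1 and 14.7, 14.9 and 15.4 in clone 19. Clone 19 thus lay within the range of the parental libraries, and clone 1 above it. Notch2 made up 62.9% to 65.3% of this sum in the parental libraries, 86.3% to 86.8% in clone 1 and 86.2% to 87.1% in clone 19. Notch1 made up 30.2% to 32.8%, 11.7% to 12.5% and 11.8% to 12.7%, and Notch3 3.17% to 3.59%, 0.892% to 1.39% and 0.632% to 0.792%. The ratio of Notch2 to Notch1 was 1.92 to 2.16 in the parental libraries, 6.91 to 7.44 in clone 1 and 6.77 to 7.41 in clone 19, with the clones overlapping. These shares were computed from RPKM within a library, so the scaling between libraries does not enter them.

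**Figure D2:**
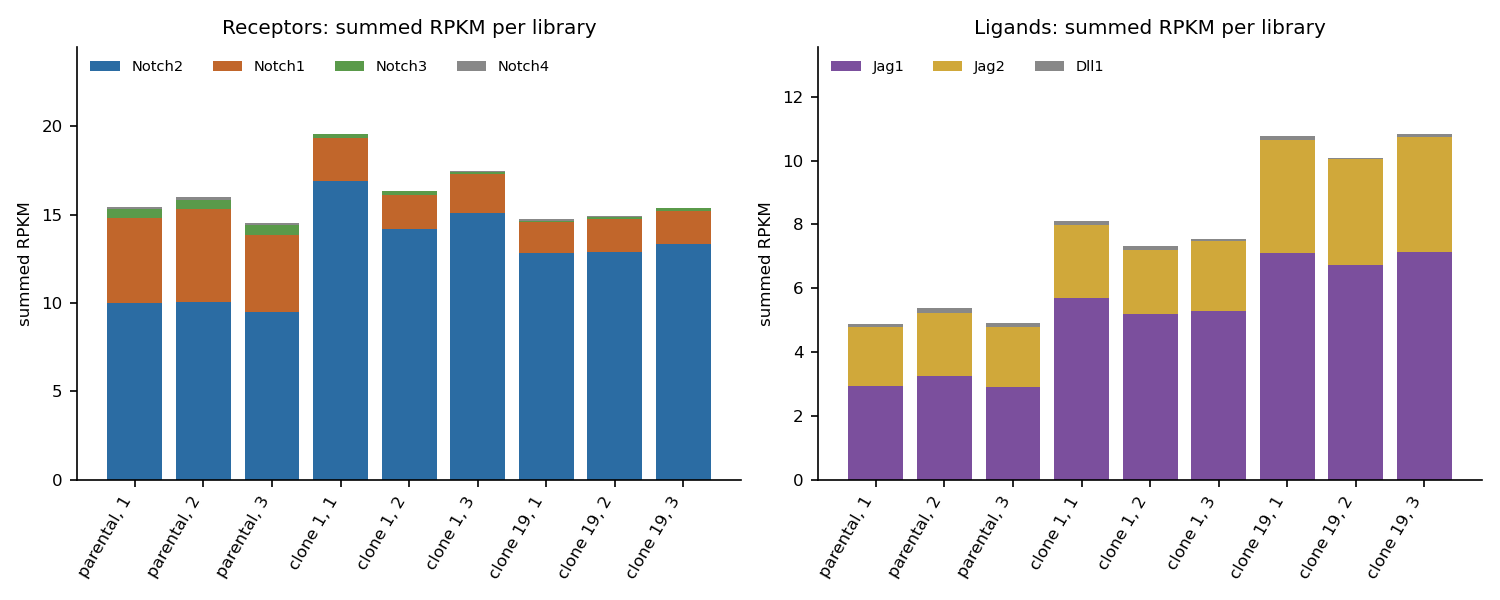
Summed RPKM (linear axis from 0) of the receptors Notch2, Notch1, Notch3 and Notch4 and of the ligands Jag1, Jag2 and Dll1 in each of the 9 libraries, with each bar split by gene. The Notch1 portion is smaller in every library of either clone than in any parental library, while the ligand sum grows from at most 5.39 in the parental line to at least 7.32 in clone 1 and at least 10.1 in clone 19.

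Of the ligands, Jag1 and Jag2 were higher in both clones, and Dll1 was low throughout and not called. Jag1 measured 2.925, 3.23 and 2.92 RPKM in the parental libraries, 5.70, 5.20 and 5.29 in clone 1 and 7.09, 6.71 and 7.14 in clone 19. The 3 groups were apart, with clone 19 highest. The log2 fold change was 0.74 ± 0.05 in clone 1 and 1.09 ± 0.05 in clone 19 (limma adjusted p = 2.7e-07 and 1.4e-08), and 3.84% and 1.48% of tested genes rose as far. The 50 nearest genes were 0.11 and 0.09 higher by their median, and with these subtracted Jag1 was 0.63 and 1.00 higher (limma adjusted p = 8.8e-07 and 2.2e-08).

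Jag2, the second Jagged ligand, measured 1.85, 2.0 and 1.86 RPKM in the parental libraries, 2.29, 2.0 and 2.20 in clone 1 and 3.55, 3.33 and 3.62 in clone 19. Clone 19 was far above both other groups, while the highest parental library and the lowest of clone 1 were level. In clone 19 Jag2 rose by 0.74 ± 0.06 (limma adjusted p = 1.0e-06), a size that 3.87% of tested genes reached. In clone 1 the change was 0.15 ± 0.06 (limma adjusted p = 0.046), which 34.9% of tested genes reached. The call in clone 1 was lost without parental replicate 1 or 3, without clone 1 replicate 1 or 3 and without clone 19 replicate 1 or 3, with an adjusted p between 0.054 and 0.14 in limma, and with the neighbouring genes subtracted (0.09, adjusted p = 0.20).

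Dll1, the Delta-like ligand of intestinal secretory progenitors, measured 0.119, 0.155 and 0.1235 RPKM in the parental libraries, 0.1004, 0.116 and 0.0649 in clone 1 and 0.129, 0.0437 and 0.0941 in clone 19. The groups overlapped. With 47, 28 and 26 reads over the libraries of each group, the log2 fold change was -0.48 ± 0.34 in clone 1 and -0.67 ± 0.35 in clone 19 (voom adjusted p = 0.22 and 0.10), and a difference was not detectable at this depth. Without clone 19 replicate 1 the change in clone 19 was -1.002 (voom adjusted p = 0.036).

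The summed ligand RNA was 4.89, 5.39 and 4.90 RPKM in the parental libraries, 8.10, 7.32 and 7.56 in clone 1 and 10.8, 10.1 and 10.85 in clone 19. The groups were apart, lowest in the parental line and highest in clone 19, by more than the spread between their libraries. Jag1 made up 59.6% to 60.02% of it in the parental libraries, 70.0% to 71.1% in clone 1 and 65.8% to 66.5% in clone 19. The ratio of Jag1 to Jag2 was 1.57 to 1.62 in the parental libraries, 2.40 to 2.599 in clone 1 and 1.97 to 2.01 in clone 19, so the balance of the Jagged ligands differed between all 3 groups without overlap.

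The target genes Hes1 and Hey1 were higher in both clones. Hes1, the main HES repressor of the intestinal crypt, measured 12.7, 13.6 and 12.3 RPKM in the parental libraries, 18.2, 16.2 and 17.2 in clone 1 and 15.1, 16.5 and 16.7 in clone 19. All libraries of the clones were above the parental libraries, and the clones overlapped. The log2 fold change was 0.41 ± 0.05 in clone 1 and 0.31 ± 0.05 in clone 19 (limma adjusted p = 3.6e-05 and 3.2e-04). By size this was not rare, since 12.5% and 16.4% of tested genes rose as far. The genes beside Hes1 were slightly lower, by a median of -0.09 and -0.14, and with these subtracted Hes1 was 0.50 and 0.45 higher (limma adjusted p = 2.7e-06 and 6.0e-06).

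Hey1, a HEY family repressor, measured 0.339, 0.241 and 0.357 RPKM in the parental libraries, 0.488, 0.542 and 0.562 in clone 1 and 0.896, 0.761 and 1.115 in clone 19. The groups did not overlap, with clone 19 highest. With 74, 103 and 175 reads over the libraries of each group, the log2 fold change on reads was 0.76 ± 0.23 in clone 1 and 1.497 ± 0.21 in clone 19 (voom adjusted p = 0.0057 and 1.7e-06). As large a rise was seen for 6.31% and 1.75% of the genes tested on reads.

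Heyl, a HEY relative known from mural cells, had no read in any parental library, 2, 1 and 3 reads in clone 1 and 4, 3 and 7 in clone 19. All its values were at or below 0.0623 RPKM. The parental libraries together allow up to 3 reads, or 0.0284 per megaread. Set against this limit for the group and taken at their measured levels, clone 1 with 0.0686 reads per megaread (95% exact Poisson interval 0.0252 to 0.149) was at least 2.41-fold higher and clone 19 with 0.16 (0.0874 to 0.268) at least 5.62-fold higher. The interval of clone 1 includes the parental limit. Floors and intervals cover counting error only.

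**Figure D3:**
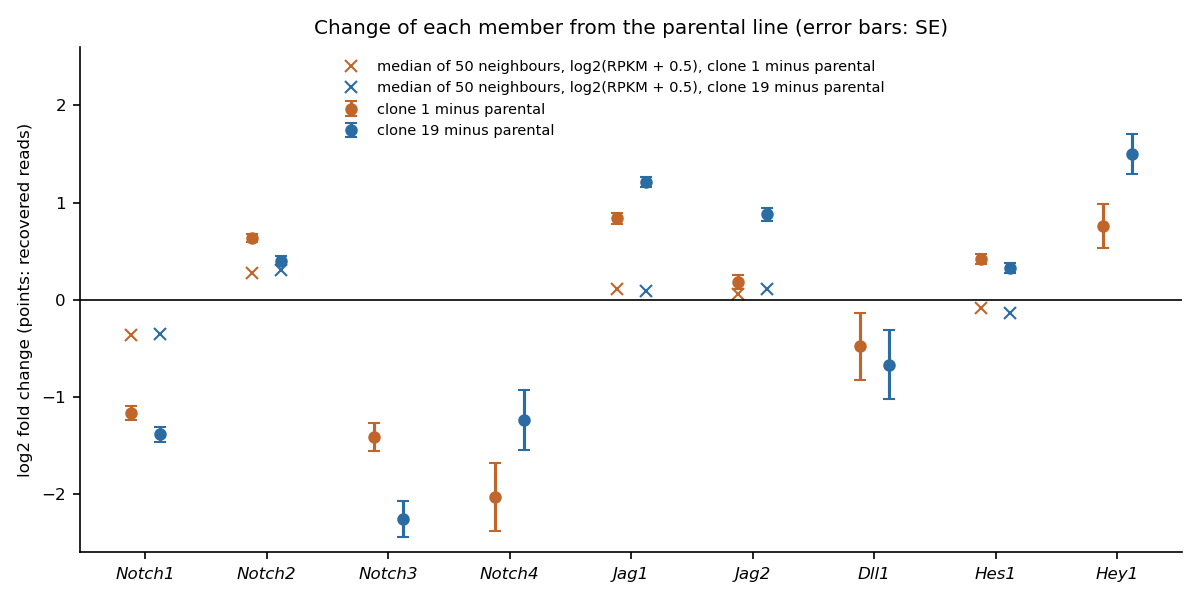
log2 fold change from the parental line of the 9 members tested on recovered reads (points, with SE as error bars) in clone 1 and clone 19, and the median change of the 50 nearest tested genes for the 5 members above the RPKM filter (crosses, on the log2(RPKM + 0.5) scale). Notch1, Notch3 and Notch4 lie below 0 and Notch2, Jag1, Jag2, Hes1 and Hey1 above 0 in both clones, and the cross of Notch2 in clone 19 lies close to its own change.

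The order of the members by level shows the same shift. In the parental libraries it ran Hes1, Notch2, Notch1, Jag1, Jag2, Notch3 and Hey1, with no overlap between neighbours, then Dll1 and Notch4, whose ranges overlapped, and Heyl at 0. In clone 1 the ranges of Hes1 and Notch2 overlapped at the top, Jag1 came next, and Notch1 overlapped with Jag2. In clone 19 the order was Hes1, Notch2, Jag1, Jag2, Notch1 and Hey1, again without overlap. Jag1 thus lay below Notch1 in every parental library and above it in every library of both clones, and Hey1 passed Notch3 in both clones.

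The direct comparison of clone 19 with clone 1 tests whether the change from the parental line differed between them. Of the 5 members above the filter 2 were higher and 1 lower, beside 18.5% higher and 24.5% lower of all tested genes. On reads 3 of 9 members were higher and 3 lower, beside 17.9% and 22.2% of all genes. Jag1, Jag2 and Hey1 were higher in clone 19, by 0.34 ± 0.05, 0.59 ± 0.06 (limma adjusted p = 5.1e-04 and 4.0e-05) and, on reads, 0.74 ± 0.19 (voom adjusted p = 0.0034). Notch2 was lower in clone 19 by -0.23 ± 0.06 (limma adjusted p = 0.0062), and Notch3 by -0.84 ± 0.21 on reads (voom adjusted p = 0.0029). For Jag2 only 1.51% of tested genes were as much higher in clone 19, and for Notch3 0.56% of genes tested on reads were as much lower. Hes1 did not differ past the threshold (-0.10 ± 0.05, limma adjusted p = 0.17), nor did Dll1 on reads (voom adjusted p = 0.74). Notch1 was -0.19 ± 0.08 lower on RPKM (limma adjusted p = 0.087) and -0.22 ± 0.08 lower on reads, where it was called (voom adjusted p = 0.042). Without clone 1 replicate 2 it was called on RPKM as well (-0.27, limma adjusted p = 0.026). Notch4 was 0.80 ± 0.40 higher in clone 19 on reads (voom adjusted p = 0.12), and was called without clone 1 replicate 3 (1.21, adjusted p = 0.046) or without clone 19 replicate 3 (1.11, adjusted p = 0.032).

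The genes that act with the members were followed in 8 lists by role, with 130 genes beyond the members, of which 99 were tested. In clone 1, 37 of these were higher and 39 lower, or 37.4% and 39.4%, beside 39.8% and 32.6% of all tested genes. In clone 19, 27 were higher and 36 lower, or 27.3% and 36.4%, beside 36.7% and 32.3%. Calls went in both directions, with more lower than higher in these lists and more higher than lower over all genes, a difference that was not tested. The lists' median change was -0.00 and -0.03. Of the 99 genes, 3 (Dtx4, Sox9 and Cdkn1c) passed the filter through the libraries of 1 group alone.

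Of the other ligands and ligand-like genes, 3 of 10 were tested, 1 higher, 1 lower and 1 not called in each clone. In clone 1 this was 33.3% in each direction, beside 39.8% higher and 32.6% lower of all tested genes. In clone 19 it was 33.3% in each direction, beside 36.7% and 32.3%. Dlk2, a Delta-like relative that lacks the receptor-binding domain, fell by 0.29 and 0.56 (limma adjusted p = 0.032 and 8.5e-04). Its call in clone 1 was lost without the filter, with quantile normalization, with neighbouring genes subtracted and without parental replicate 2 or 3 or clone 1 replicate 1 or 3, and the genes beside it were lower there by a median of -0.29. Jagn1, a protein of the endoplasmic reticulum that is no Notch ligand, rose by 0.35 and 0.23. Dll4, the other Delta-like ligand of the crypt, averaged 0.0127 RPKM in the parental line, 0 in clone 1 and 0.0206 in clone 19. Of the 10 tested genes for receptor glycosylation and furin cleavage, 5 were higher and 4 lower in clone 1 and 4 and 3 in clone 19. In clone 1 these were 50% and 40%, beside 39.8% and 32.6% of all tested genes. In clone 19 they were 40% and 30%, beside 36.7% and 32.3%. Gxylt2, which adds xylose to the sugars on Notch repeats, rose from 4.94 ± 0.170 RPKM to 11.3 ± 0.467 and 10.6 ± 0.428 (log2 fold change 1.12 and 1.03, limma adjusted p = 2.5e-09 and 5.5e-09). Its relative Gxylt1 rose by 0.46 and 0.41, while the receptor convertase Furin fell by 0.39 and 0.52 and the glucosyltransferase Poglut1 by 0.33 and 0.32. Lfng, a Fringe enzyme that tunes which ligands a receptor answers to, fell in clone 1 (-0.35, limma adjusted p = 1.0e-04) and was not called in clone 19 (0.06, adjusted p = 0.31), and the clones differed (0.41, adjusted p = 1.4e-04).

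Of 13 tested genes for metalloprotease and gamma-secretase cleavage, 5 were higher and 3 lower in clone 1 and 3 and 3 in clone 19. In clone 1 these were 38.5% and 23.1%, beside 39.8% and 32.6% of all tested genes. In clone 19 they were 23.1% and 23.1%, beside 36.7% and 32.3%. Adam10, the protease that cuts ligand-bound Notch, measured 48.9 ± 1.41, 55.4 ± 0.998 and 50.7 ± 0.606 RPKM and was called in clone 1 (0.18, limma adjusted p = 6.6e-05) but not in clone 19 (0.05, adjusted p = 0.084). Of the tetraspanins that accompany Adam10, Tspan5 rose by 0.54 and 0.66 and Tspan15 by 0.19 and 0.11, and Tspan17 fell by 0.82 and 0.64. The median of the 50 genes beside Tspan5 was 0.37 and 0.33.

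Of 24 tested genes of ubiquitin ligases, endocytosis and turnover, 11 were higher and 8 lower in clone 1 and 6 and 11 in clone 19. In clone 1 these were 45.8% and 33.3%, beside 39.8% and 32.6% of all tested genes. In clone 19 they were 25% and 45.8%, beside 36.7% and 32.3%. The Deltex ligase Dtx3 fell by 0.88 and 0.89, and so did Usp28, a deubiquitinase that opposes Fbxw7, by 0.98 and 0.85. The genes beside Dtx3 changed by a median of -0.36 and -0.34, and those beside Usp28 by 0.12 and -0.05. Dtx4, another Deltex gene, averaged 1.21, 0.652 and 0.585 RPKM in the parental line, clone 1 and clone 19. It passed the filter only through the parental libraries, so its calls as lower were favoured by the filter. Fbxw7 rose by 0.32 and 0.19 (limma adjusted p = 3.7e-05 and 0.0018), and the genes beside it by a median of 0.29 and 0.30. Numb, an inhibitor of Notch receptors, rose by 0.32 and 0.23 (limma adjusted p = 6.0e-05 and 7.5e-04).

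In the nuclear activation complex, 4 of 13 tested genes were higher and 3 lower in clone 1, and 3 and 3 in clone 19. In clone 1 these were 30.8% and 23.1%, beside 39.8% and 32.6% of all tested genes. In clone 19 they were 23.1% and 23.1%, beside 36.7% and 32.3%. Rbpj, the DNA-binding partner of the receptor's intracellular domain, measured 4.61 ± 0.148, 4.24 ± 0.199 and 4.36 ± 0.0894 RPKM and was not called (-0.11 and -0.07, limma adjusted p = 0.058 and 0.19). Of the Mastermind coactivators, Maml1 fell by 0.23 and 0.30, Maml2 rose in clone 1 (0.36, limma adjusted p = 0.002) and was not called in clone 19 (-0.13, adjusted p = 0.18), and Maml3, below the filter, averaged 0.485 RPKM in the parental line, 0.0330 in clone 1 and 0.168 in clone 19. The acetyltransferase Crebbp rose by 0.56 and 0.49, and Ccnc, the cyclin partner of Cdk8, fell by 0.29 and 0.14.

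Among RBPJ co-repressors 7 of 20 tested genes were higher and 10 lower in clone 1, and 5 and 7 in clone 19. In clone 1 these were 35% and 50%, beside 39.8% and 32.6% of all tested genes. In clone 19 they were 25% and 35%, beside 36.7% and 32.3%. Bend6, which holds back Notch targets together with Rbpj, fell by 0.56 and 0.65, and the RBPJ-binding protein L3mbtl3 by 0.50 and 0.40. The genes beside Bend6 changed by a median of 0.11 and -0.03, and those beside L3mbtl3 by -0.28 and -0.30. The Groucho-type co-repressor Tle4 rose by 0.38 and 0.35, and the genes beside it by a median of 0.20 and 0.20. Kyat1, which fell by 0.94 and 0.65, is known as an enzyme of kynurenine metabolism and not as a co-repressor, although the list holds it. The genes beside Kyat1 changed by a median of -0.33 and -0.31.

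Of the other HES and HEY genes and genes listed as Notch targets, 14 were tested. Hes6 was the only HES or HEY gene among those tested. It changed by -0.15 in clone 1 and -0.32 in clone 19 (limma adjusted p = 0.045 and 6.7e-04). In clone 1, 4 were higher and 10 lower, or 28.6% and 71.4%, beside 39.8% and 32.6% of all tested genes. In clone 19, 4 were higher and 8 lower, or 28.6% and 57.1%, beside 36.7% and 32.3%. The list's median change was -0.28 and -0.21, and its difference from all genes was not tested. Ccnd1, which encodes cyclin D1, fell from 130.4 ± 1.61 RPKM to 69.9 ± 0.662 and 68.3 ± 0.760 (log2 fold change -0.90 and -0.93, limma adjusted p = 2.7e-11 in both). Snai2 fell by 1.196 and 1.30 and Bhlhe41 by 1.04 and 1.40. Sox9 averaged 1.44 RPKM in the parental line, 0.0861 in clone 1 and 0.286 in clone 19. It passed the filter only through the parental libraries, so its 2 calls among those counted were favoured by the filter. Of the genes that were higher, Bhlhe40, a basic helix-loop-helix repressor, rose from 25.3 ± 0.583 RPKM to 42.03 ± 0.725 and 42.2 ± 0.583 (0.72 in each clone, limma adjusted p = 9.1e-10 and 8.9e-10). The cell cycle inhibitor Cdkn1a rose by 0.64 and 0.25 and Nfkb2, an NF-kB subunit, by 0.25 and 0.32. Nrarp, a direct target that feeds back on the receptor, fell in clone 1 (-0.46, limma adjusted p = 6.6e-04) and was not called in clone 19 (-0.11, adjusted p = 0.27), and the clones differed (0.34, adjusted p = 0.0088). The median change of the 50 genes beside Nrarp was -0.297 in clone 1 and -0.305 in clone 19. Several of these genes have other known regulators. Hey2, below the filter, averaged 0.834, 0.585 and 0.770 RPKM.

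Of the genes that HES factors repress, only 2 of 9 were tested. Cdkn1b was not called in either clone, and Cdkn1c, an inhibitor of the cell cycle, averaged 0.865 RPKM in the parental line, 0.751 in clone 1 and 1.47 in clone 19. It passed the filter only through clone 19, where it is highest, so its call there is not read as a result. Atoh1, Neurog3 and Neurog1 were listed at 0 in all 9 libraries.

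**Figure D4:**
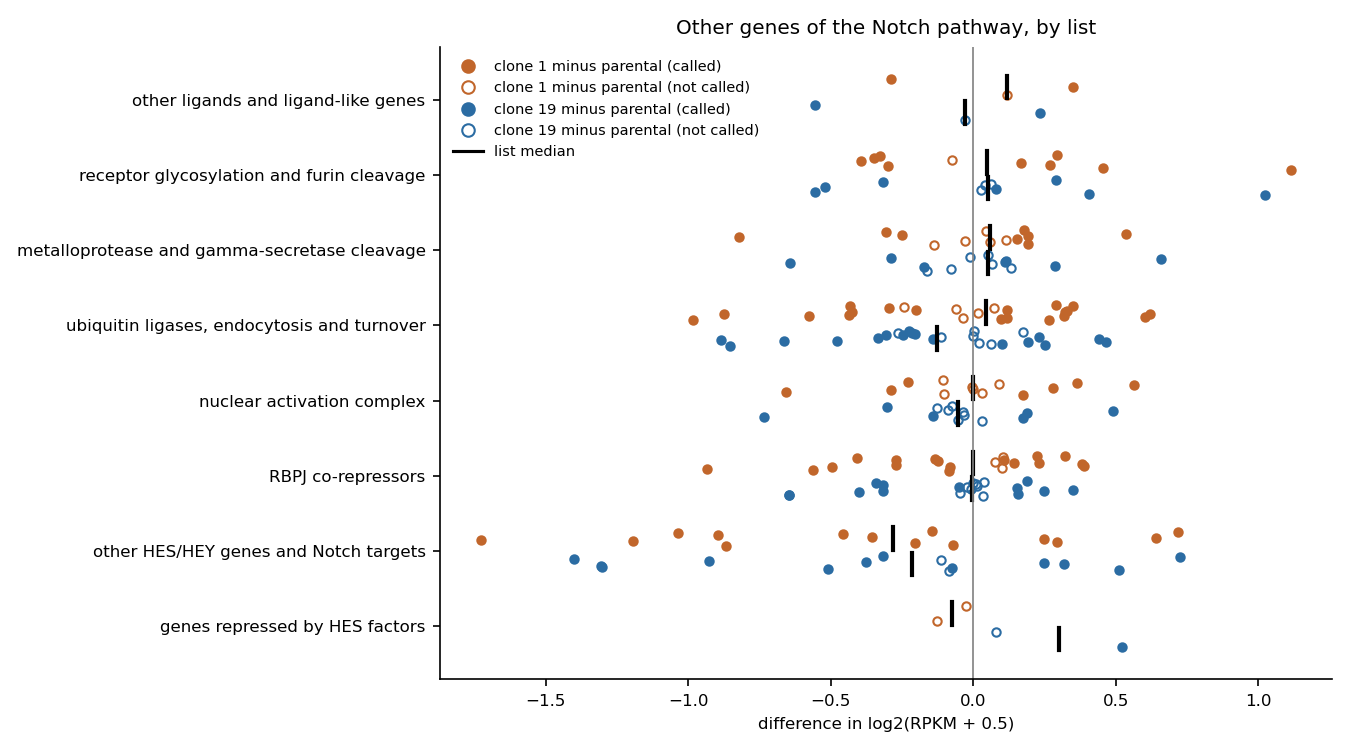
Difference in log2(RPKM + 0.5) from the parental line of every tested gene in the 8 lists of other pathway genes (horizontal axis; clone 1 and clone 19 in separate rows of each list; filled points called at an adjusted p under 0.05, open points not called; black lines list medians). Most lists lie on both sides of 0. The list of other HES and HEY genes and Notch targets has medians of -0.28 and -0.21. Of its HES and HEY genes only Hes6 was tested.

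The genes nearest in pattern to each tested member were found by the root mean square distance between their log2(RPKM + 0.5) values over the 9 libraries, each centred on its parental mean. For Notch1 they were Zfp469 (distance 0.0592) and Fam171b (0.0831), which changed by -0.98 and -1.09 in clone 1 and by -1.22 and -1.18 in clone 19. Zfp469 averaged 2.20, 0.871 and 0.663 RPKM in the parental line, clone 1 and clone 19. It passed the filter only through the parental libraries, so its fall was favoured by the filter. For Notch2 they were Ankrd11 (0.0414) and Sptbn1 (0.0435), and for Jag1 Mgat3 (0.0544) and Cgn (0.0643), the latter encoding the tight junction protein cingulin. For Jag2 they were Ccdc50 (0.0646) and a gene with no name in the table used (0.0723), and for Hes1 Gk5 (0.0346) and Kif13a (0.0358). The gene with no name averaged 0.50, 0.538 and 1.18 RPKM in the parental line, clone 1 and clone 19. It passed the filter only through clone 19, where it is highest, so its rise there was favoured by the filter.

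Markers of the cell types in which these genes are best known were measured beside them, and their part in the changes was not tested. Of 19 intestinal epithelial markers 4 were tested, Cdh1, Krt8, Krt18 and Krt19, with 3 higher and 0 lower in clone 1 and 4 and 0 in clone 19. Their list summed to 614 to 632 RPKM in the parental libraries, 986 to 1037 in clone 1 and 970 to 976 in clone 19. Nearly all of this sum was Krt8, Krt18 and Krt19, which averaged 130.1, 391.5 and 101 RPKM in the parental line. Cdx2 and Hnf4a were at 0 in every library, and 9 of the 19 were under 0.1 RPKM in every library. Epcam averaged 0.0212, 0.0934 and 0.161 RPKM. These genes were thus absent or low in cells labelled intestinal, unlike Krt8, Krt18 and Krt19. Of 15 endothelial markers 4 were tested, 2 higher and 1 lower in each clone. The list summed to 25.2 to 25.7, 52.2 to 54.2 and 45.2 to 47.8 RPKM, mostly Esam. Emcn, Cldn5 and Sox17 were at 0 and Cdh5, Tie1, Vwf and Erg under 0.1. Of 12 mural markers 4 were tested, 2 higher and 2 lower in clone 1 and 1 and 2 in clone 19. Their list summed to 345 to 356, 475 to 489 and 440 to 453 RPKM, with Kcnj8 and Higd1b at 0. Acta2 averaged 257.9, 364 and 356.8 RPKM and Tagln 79.0, 109.3 and 80.96, while Pdgfrb, a mural and fibroblast receptor, averaged 8.06, 5.90 and 3.745 and Mcam 4.06, 2.29 and 3.135. Of 10 fibroblast markers 8 were tested, 3 higher and 5 lower in clone 1 and 2 and 6 in clone 19, and they summed to 631 to 669, 564 to 569 and 485 to 504 RPKM. Of these, Fbln1 (means 3.97, 0.0124 and 0.60 RPKM) and Postn (1.59, 0.347 and 0.719) passed the filter only through the parental libraries. Their calls as lower were thus favoured by the filter. The endothelial marker Kdr also passed only through the parental libraries, and Cdh1 only through clone 19. All 9 mesothelial markers were tested, 8 higher and 1 lower in each clone, and they summed to 1071 to 1075, 1950 to 1996 and 2024 to 2034 RPKM. Beside these marker counts, 39.8% of all tested genes were called higher and 32.6% lower in clone 1, and 36.7% and 32.3% in clone 19. The difference of any marker list from all genes was not tested. Of 8 immune markers 1, Cd68, was tested, and the list summed to 3.22 to 4.34 RPKM over all libraries.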

How the data were processed

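The authors deposited 1 table of RPKM values for 28059 Entrez IDs with 1 column for each of the 9 libraries. Per the labels' protocols total RNA was isolated with a column kit and libraries were made with a TruSeq kit, and the submitters' processing notes name GSNAP, DESeq and build NCBIM37. Tool versions, the annotation, the counting rule and the use of strand are not given in the sources. Annotated genes overlap Notch1 (2), Notch2 (1), Notch3 (2), Jag2 (1) and Hey1 (1), and reads of such pairs could not be separated here.

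Gene names came from RefSeq's GRCm38.p6 table, which held 24998 of the IDs, and all 214 list entries matched. Because the builds differ, that table gave names and gene order only, and the start regions carry RefSeq's own coordinates. Samples were grouped by their labels. limma 3.58.1 in R 4.3.3 was fitted to log2(RPKM + 0.5) with group means for all 9 libraries and a mean-variance trend, over the genes at 1 RPKM or above in 3 or more libraries, with Benjamini-Hochberg adjustment within a contrast. Depths and gene lengths that make the RPKM values whole reads were estimated from 1594 genes. Of 17698 genes above 0 in at least 6 libraries, 17695 came out whole within 0.0005 read. Voom was run on these reads for genes with at least 10 reads in at least 3 libraries and called 5551 genes higher and 4828 lower in clone 1 and 5188 and 4711 in clone 19. RPKM and voom both scale by the estimated depth. Reads recovered for genes were 36.1, 23.1 and 26.9 megareads of 44.2, 28.2 and 33.1 in the parental libraries. In clone 1 they were 20.2, 28.0 and 27.0 of 23.2, 32.7 and 31.5. In clone 19 they were 24.8, 28.3 and 21.2 of 29.4, 33.4 and 24.8. This part was smaller in every parental library than in any of the clones. Scaling by median ratios shifted the changes by a median of -0.03 in clone 1 and -0.02 in clone 19. Neighbours were the 50 nearest tested genes in gene order.

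The members, the pathway and marker lists and the tests were chosen with earlier results of these data known. The rule for named genes took all members, up to 4 genes per pathway list by the smaller of their changes among those called in one direction in both clones, and 12 genes central to the pathway. The values of some list genes are not reported here, but they are part of the counts. Further genes (Dll4, Hes6, Hey2, Bhlhe40, Cdkn1a, Nfkb2, Cdkn1b, Cdkn1c, Atoh1, Neurog3, Neurog1 and the single markers) were named after their values were seen. The alternatives were pseudocounts of 0.1 and 1, no filter or one at 3 RPKM, scaling by median ratios, no trend, quantile normalization, array quality weights, only the groups compared, a replicate block, each library left out, neighbouring genes subtracted and, added after seeing the data, voom on reads.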

Additional observations from a re-analysis of the deposited data

Results flagged for a closer look

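For 3 of the 5 members tested on RPKM, and for Notch3 and Hey1 among the low members tested on reads, the change from the parental line differed between the clones, by the test of clone 19 minus clone 1. Over all genes 18.5% were called higher and 24.5% lower in this test on RPKM, and 17.9% and 22.2% on reads. Notch2 was higher in both clones and less so in clone 19, with a difference of -0.23 on the log2 scale (limma adjusted p = 0.0062). Jag1 and Jag2 rose further in clone 19, with differences of 0.34 and 0.59 (limma adjusted p = 5.1e-04 and 4.0e-05). On recovered reads Notch3 fell further in clone 19 (-0.84, voom adjusted p = 0.0029) and Hey1 rose further (0.74, voom adjusted p = 0.0034). Notch1 was called on reads (-0.22, voom adjusted p = 0.042) and not on RPKM (-0.19, limma adjusted p = 0.087). Each clone is a single line with 3 libraries, so a difference between clones cannot be told apart from differences between any pair of isolated lines.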

How the results depend on the processing

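No change of a member reversed under any alternative where it was called in the reported or the alternative run. Reversals of changes called in neither run were not counted. The number of members called lower rose from 1 to 3 in clone 1 and in clone 19 both without the filter and with voom on reads, because low members then entered the test. For clone 19 minus clone 1 it rose from 1 to 2 without the filter and with quantile normalization, to 3 with voom, and was 1 to 2 with each library left out (2 without clone 1 replicate 2, where Notch1 was called). The other counts of members and of other pathway genes stayed within 1.5 times of those reported. Leaving out a library, members called higher in clone 1 numbered 3 to 4. Of the alternative values of tested members 300 kept their side of the threshold, 3 passed it and 12 lost it, 11 of them Jag2 in clone 1, also without the filter (adjusted p = 0.085), with median-ratio scaling (0.12, adjusted p = 0.094) and with only the groups compared (adjusted p = 0.067). Over single pathway lists 946 alternative counts stayed within 1.5 times and 62 did not. With neighbouring genes subtracted, lower calls went from 3 to 7 in clone 1 and from 3 to 6 in clone 19 for the nuclear complex, from 3 to 5 in each clone for receptor cleavage and from 10 to 6 in clone 1 for the co-repressors, and higher calls for turnover from 11 to 6 in clone 1. Deviations of libraries with the same replicate number correlated by -0.04 to 0.12 over 9 pairs. Those of libraries with different numbers correlated by -0.14 to 0.08 over 18 pairs. Both ranges were small and overlapped, so the numbers were not taken as pairs. With the replicate block 3 members were called higher in clone 1, since Jag2 was not called (0.15, limma adjusted p = 0.067), and the other member counts kept their value. Depth limits Dll1, Notch4, Hey1 and Heyl, with 0 to 61 reads per library.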
